A study of Sus scrofa with 15 samples.

Results

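Pig liver holds NK cells that stain dimly for CD8α, called liver-resident NK (lrNK) cells, beside NK cells that stain brightly for CD8α as those in blood do. Here the 5 libraries labelled liver resident NK were compared with the 5 labelled blood NK, 10 of the 15 libraries of the series, which come from the same 5 pigs. The pigs were 6 months old, with no treatment named, and the liver of each was collected right after its blood. All populations were sorted by flow cytometry as cells without CD3 and CD172a, lrNK cells as CD8α-dim cells from liver flushed with saline through the portal vein and blood NK cells as CD8α-high cells from peripheral blood mononuclear cells. The remaining 5 libraries, CD8α-high NK cells sorted from the same flushed livers, were part of the fit behind the tests. Otherwise they enter as values given beside some results. RNA was read from the 3′ end of polyadenylated transcripts, so a count does not grow with transcript length.

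NK cells are innate lymphocytes that kill infected or transformed cells with perforin and granzymes and that release cytokines, under the control of activating and inhibitory receptors. Circulating NK cells leave tissues by way of sphingosine-1-phosphate receptors and adhere with integrins, while resident cells of the liver sinusoids are held there by other receptors, among them CXCR6, the receptor of the chemokine CXCL16. The T-box factors T-bet and Eomes direct NK cell development and effector genes.

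Between 2874092 and 3823973 reads were counted per blood library (median 3749615) and between 2003499 and 3776823 per lrNK library (median 2407859). Levels are given as CPM, counts scaled to a common library size with edgeR's TMM factors. A gene was called when the quasi-likelihood test of edgeR gave it an adjusted p under 0.05, adjusted after Benjamini and Hochberg over all genes tested, and fold changes are given with their standard error (SE). As each library is a bulk of sorted cells, fewer cells that express a gene and less RNA of it per cell cannot be told apart.

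The 4 marker genes named for these populations were chosen with earlier results of these data known, and they separated the libraries without overlap. *EOMES* (Eomes) was at 73.98, 30.97, 27.95, 20.2 and 44.4 CPM in blood NK cells of pigs 1 to 5 and at 813, 442, 713, 776 and 641 CPM in lrNK cells, and *CXCR6* at 0, 0.548, 4.88, 0.361 and 2.05 CPM and 700.2, 607, 86.2, 837 and 729 CPM. *TBX21*, which encodes T-bet, was at 1051, 1121, 1038, 1269 and 1234 CPM in blood against 223, 224, 80.9, 201 and 246 CPM in lrNK cells, and *CX3CR1*, the receptor of fractalkine, at 695, 507, 911, 241 and 871 CPM and 1.25, 3.84, 7.79, 0 and 2.35 CPM. *CXCR6* lies within *FYCO1*, which fell by 1.57 on the log2 scale, and *CX3CR1* overlaps the scarce *LOC110256576*, which fell by 7.37. The lrNK library of pig 3 had the lowest level of the 5 for *CXCR6* and *TBX21*. It also had the lowest lrNK levels of *KLRK1* (the receptor NKG2D), 75.5 CPM against 330.2 to 1168 CPM, and of *IL2RB* (a chain of the receptors of IL-2 and IL-15), 381 CPM against 2503 to 5900 CPM, so this library stands apart, and values without a pig are given where they end a call or move a printed fold by more than 1.5 times. Its summed markers of hepatocytes, 29.7 CPM, of stellate cells and fibroblasts, 19.5 CPM, and of endothelium, 14.1 CPM, were the highest of the 10 libraries. Of the genes of the sort gate, *CD8A* was at 466 CPM on average in blood and 43.4 CPM in lrNK cells (log2 fold change -3.43, adjusted p = 1.24e-08, edgeR), which the gate itself used. *SIRPA* (CD172a) had 0 counts in every blood library and 8 counts in 1 lrNK library. The CD3 gene *CD3G* was at 629 to 1176 CPM in blood and 104 to 586 CPM in lrNK cells, while *CD4*, *CD5* and *CD28* had 0 counts in all 10 libraries.

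Markers of other cell types were summed per library. B cell markers summed to 63.1 to 179 CPM in blood and 373 to 1026 CPM in lrNK cells, with liver CD8α-high NK cells at 37.9 to 83.9 CPM. Of the 9 B cell markers tested, 8 were called higher in lrNK cells, against 8.62% of all genes tested. *MS4A1* (CD20) was the most abundant of them, at 27.1, 33.2, 61.6, 19.9 and 6.14 CPM in blood against 239, 313, 152, 475 and 156 CPM in lrNK cells, and *CD79A* had 0 counts in all 10 libraries. Plasma cell markers summed to 36.0 to 90.4 CPM in blood and 140.0 to 621 CPM in lrNK cells, with 4 of 7 tested called higher, against the same 8.62% of all genes. The *JCHAIN* level, the joining chain of secreted antibodies, was 17.1, 20.01, 53.7, 39.8 and 10.2 CPM in blood against 44.4, 375, 372, 318 and 185 CPM in lrNK cells. The dendritic cell list summed to 241 to 324 CPM and 533 to 887 CPM, which came from *CD1D* and *IRF8*, while *FLT3*, *CLEC9A* and *CLEC10A* were at 0 in all 10 libraries. Hepatocyte markers reached 3.26 CPM at most in blood and 4.80 to 29.7 CPM in lrNK cells, with 8 of 12 markers at 0 in all 10 libraries. The T cell list ran the other way, from 646 to 1266 CPM in blood to 117 to 595 CPM in lrNK cells, mainly through *CD3G*. Only *CD3G* was called among the 4 T cell markers tested. *CD3D* rose without a call (log2 fold change 1.15, adjusted p = 0.188, edgeR). *CD3E* and *THEMIS* had log2 fold changes of -2.21 and -0.96 and were not called either. These 5 sums did not overlap between the populations (two-sided exact permutation test, p = 0.00794 each, the smallest that the splits of 10 libraries allow, adjusted p = 0.0206 over 13 lists). Over the 32 sign patterns of the paired differences the smallest possible p is 0.0625 (exact sign-flip test, adjusted p = 0.162), which cannot reach 0.05. Sums of NK cell, monocyte, neutrophil, erythroid, platelet, endothelial, stellate cell and bile duct markers overlapped between the populations, and their adjusted p ranged from 0.295 to 0.992 (exact permutation test). In the blood library of pig 4 the red cell markers summed to 323 CPM, against 0 to 6.03 CPM in the other blood libraries.

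**Figure D1:**
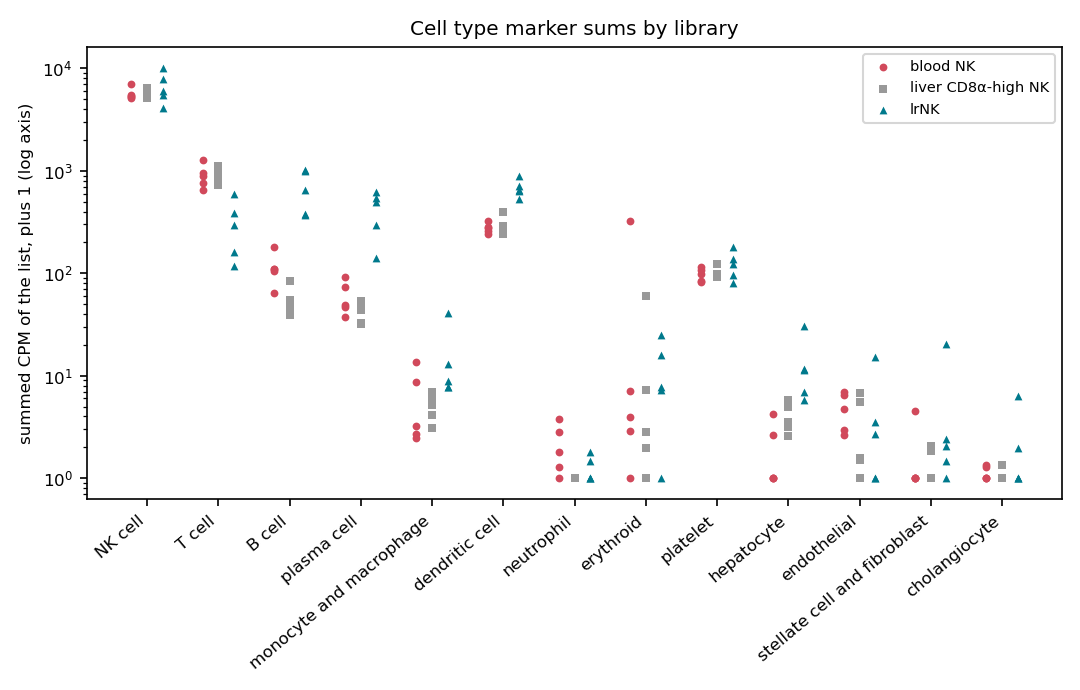
Summed CPM of each cell type marker list in every library, plus 1, on a log axis, with circles for blood NK, squares for liver CD8α-high NK and triangles for lrNK cells (5 points each). B cell and plasma cell sums of the lrNK libraries, 373 to 1026 CPM and 140.0 to 621 CPM, lie above all blood and liver CD8α-high libraries.

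Of 10939 genes tested, 1993 were called, which is 18.2%, with 943 (8.62%) higher in lrNK than in blood NK cells and 1050 (9.6%) lower. More than 4-fold differences were found for 286 of the higher and 401 of the lower genes, and more than 16-fold differences for 83 and 149. The median log2 fold change over all genes tested was 0.01. Most calls, 1596 of 1993, had a BaseMean of 500 or less, where BaseMean is the mean over all 15 libraries of counts divided by DESeq2's size factors. In the band under 20, 152 of 1821 genes tested were called (59 higher, 93 lower), in the band from 20 to 100, 591 of 4080 (313 higher, 278 lower), from 100 to 500, 853 of 3762 (409 higher, 444 lower) and over 500, 397 of 1276 (162 higher, 235 lower). The called share thus ran from 8.35% in the lowest band to 31.1% in the highest, while the median size of a called difference ran from 4.34 down to 0.90 on the log2 scale. In the lowest band 151 of 152 called genes differed by more than 4-fold, and the median standard error there was 0.93 against 0.17 in the highest band, so smaller differences of scarce genes were not detectable at this depth. DESeq2, which tested 12961 genes, called 172 higher and 171 lower in that band, and edgeR called 39 higher there without pig 2. Of the 8946 genes not called, 592 had a 95% interval that lay within 0.5 of 0 on the log2 scale.

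**Figure D2:**
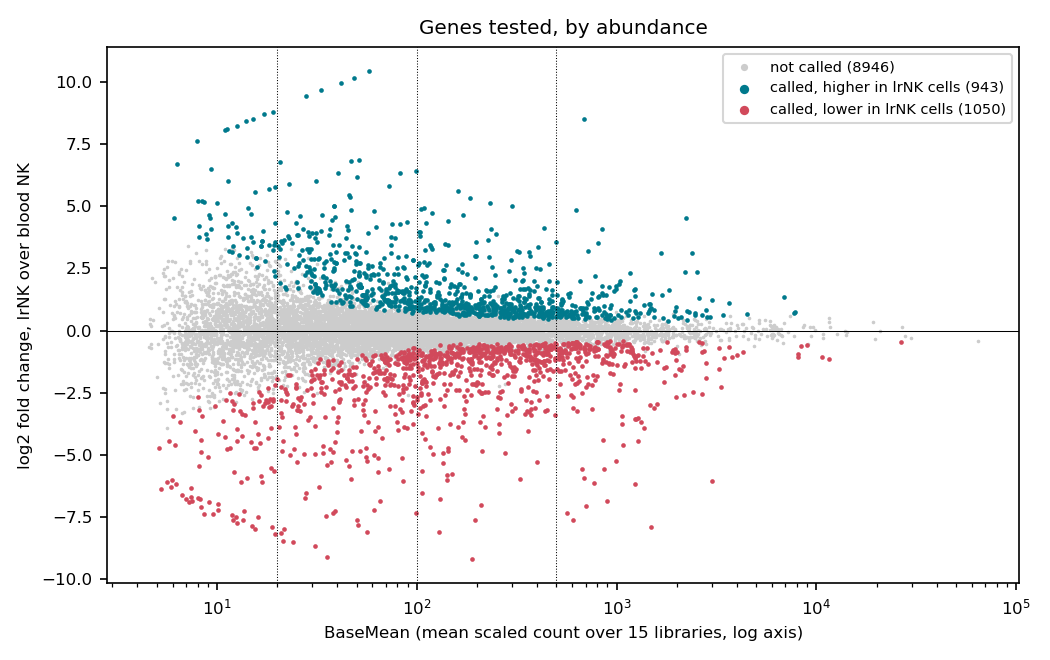
Log2 fold change of lrNK over blood NK cells against BaseMean on a log axis for the 10939 genes tested, with dotted lines at BaseMean 20, 100 and 500. The 943 higher and 1050 lower called genes thin out towards low BaseMean, and the diagonal rows at the upper and lower left are genes without counts in 1 of the populations.

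Among scarce genes, those of the band under 20 with the largest changes had no counts at all in 1 population. *SLC4A10*, a bicarbonate transporter, had 0 counts in all blood libraries and 8, 23, 52, 76 and 77 counts in lrNK cells of pigs 1 to 5, and *FNDC1*, which overlaps a non-coding RNA, had 0 counts in blood and 58, 7, 9, 42 and 20 in lrNK cells. Against a floor of 3 counts per library these were at least 17.8-fold and at least 10.7-fold higher in lrNK cells. In the other direction, *SPRN*, a relative of the prion protein, had 44, 29, 40, 9 and 23 counts in blood and *PLEKHA5* 58, 2, 18, 44 and 19, with 0 in every lrNK library, so they were at least 7.24-fold and 7.54-fold lower. Among more abundant genes, *F2R*, the thrombin receptor PAR1, was at 6.23, 7.67, 7.06, 11.9 and 6.14 CPM in blood against 319, 191, 365, 159 and 233 CPM in lrNK cells (log2 fold change 5.02, SE 0.49, adjusted p = 1.99e-07 in edgeR), with 20.3 ± 16.02 (SD, n = 5) CPM in liver CD8α-high NK. The GTPase-activating protein *ARHGAP18* was at 4.61, 8.22, 4.88, 6.505 and 3.41 CPM and 179, 177, 121, 245 and 241 CPM (log2 fold change 5.11, SE 0.59, adjusted p = 1.74e-06 in edgeR), and the non-coding *LOC106508849* that overlaps it rose by 4.07 on the log2 scale. *ADAM19*, a membrane metalloprotease, rose from 2.899 ± 1.597 to 91.05 ± 59.5 CPM (log2 fold change 4.93, SE 0.64, adjusted p = 9.26e-06 in edgeR), and the overlapping gene *NIPAL4* rose with it, so their reads cannot be told apart without the strand of the counting. *NUMBL*, an adaptor related to the Notch inhibitor Numb, was at 43.4, 50.98, 51.3, 71.9 and 71.99 CPM in blood and 0, 0, 0, 1.404 and 0.522 CPM in lrNK cells (log2 fold change -6.79, SE 0.52, adjusted p = 8.19e-09 in edgeR). The inducible nitric oxide synthase *NOS2* was at 153, 88.5, 158, 178 and 159 CPM in blood, 159 ± 22.6 CPM in liver CD8α-high NK and 1.66, 2.88, 9.26, 0 and 0.261 CPM in lrNK cells (log2 fold change -5.95, SE 0.52, adjusted p = 5e-08 in edgeR). For each of *F2R*, *ARHGAP18*, *NUMBL* and *NOS2* the 5 libraries of one population lay far from the 5 of the other. They were chosen for large changes in their band with one direction in all 5 pigs, so nothing is read from that separation. Of all genes tested, 13.5% had CPM ranges that did not overlap. *NUMBL* had a log2 fold change of -7.91 without pig 4 and *NOS2* of -7.18 without pig 3.

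A gene was taken as detected in 1 population only where every library of that population had at least 10 counts and every library of the other had 0 to 3. By this rule 29 genes were found in blood NK cells only, 0.336% of the 8620 genes with at least 10 counts in every blood library, and 12 in lrNK cells only, 0.155% of 7730. None of the 41 had a BaseMean over 500. As the rule itself picks genes that differ, nothing is read from their tests. Because the lrNK libraries were shallower, the floor of 3 counts is worth 1.15 CPM there and 0.911 CPM in blood. When all 10 libraries were thinned to 2003499 counts, 24 and 13 genes passed, 19 and 9 of them the same. With a pig left out, fewer libraries have to meet the rule, and the blood-only number rose to 51 without pig 2, 48 without pig 4 and 47 without pig 5, and the lrNK-only number to 26 without pig 1, 25 without pig 3 and 19 without pig 5.

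*EXOC3L2*, related to the exocyst subunit Sec6 and lying at chromosome 6, bases 51638058 to 51661716 of Sscrofa11.1, had 225, 199, 257, 218 and 217 counts in blood NK cells of pigs 1 to 5 and 1, 0, 0, 0 and 2 in lrNK cells. The ratio of its summed and scaled counts, blood over lrNK, was 309.97 (95% interval 106 to 1505), where the interval here and in later ratios covers counting error only. The receptor tyrosine kinase *RET* (chromosome 14, bases 61305818 to 61361416) had 86, 89, 72, 105 and 88 counts in blood and 0, 2, 0, 0 and 0 in lrNK cells, a ratio of 183 (95% interval 50.4 to 1518). *HNF4A* (chromosome 17, bases 46783772 to 46847505), a nuclear receptor best known as a master factor of hepatocytes, was read in blood NK cells with 79, 67, 60, 51 and 32 counts and in lrNK cells with 0, 0, 0, 0 and 1, a ratio of 241 (95% interval 42.9 to 9544). Reads of *HNF4A* were thus nearly missing from lrNK cells, although they came from liver, while liver CD8α-high NK cells had 42, 88, 59, 144 and 61 counts. The class I myosin *MYO1E*, which overlaps the end of the scarcer *FAM81A*, had 69, 108, 145, 89 and 90 counts in blood and 1, 2, 0, 0 and 0 in lrNK cells, a ratio of 139 (95% interval 47.3 to 677). The potassium channel *KCNQ1* had 118, 102, 84, 27 and 25 counts in blood and 0 in every lrNK library, at least 17.5-fold lower. *MAML3*, a coactivator of Notch, had 73, 54, 43, 105 and 34 counts in blood and 1, 0, 0, 0 and 0 in lrNK cells, a ratio of 257 (95% interval 45.9 to 10202). It overlaps *MGST2*, which is also on the blood-only list, with 52, 13, 18, 30 and 15 counts in blood. The signalling adaptors *SHB* (47, 71, 59, 57 and 47 counts) and *GRAP2* (14, 42, 36, 44 and 49 counts) and the kinase *MAP4K3* (79, 38, 31, 41 and 28 counts) were read in every blood library, and in lrNK libraries *SHB* had at most 1 count, *GRAP2* at most 3 and *MAP4K3* 0. *OCA2*, a melanosome transporter whose loss causes albinism, was at 10.8, 27.96, 39.1, 36.5 and 31.05 CPM in blood and had 1 count over the 5 lrNK libraries. The remaining blood-only genes were *ABLIM3*, *RTL5*, *STMN3*, *CHST15*, *SMTN*, *ITGA5*, *NUP62CL*, *TSPAN9*, *EVA1A*, *RSPO2*, *TDRKH*, *PKP3*, the uncharacterised protein-coding gene *LOC100510904*, with a ratio of 772 (95% interval 213 to 6376), and 5 long non-coding RNAs, of which *LOC110260288* had 64, 224, 242, 136 and 179 counts. Of the 29 genes 11 had 0 counts in all 5 lrNK libraries, with lower bounds from 4.77-fold to 17.5-fold, and the other 18 had 1 to 7 counts in all, with ratios of up to 772. As so few reads stand below these ratios, they moved with single pigs, to 659 for *EXOC3L2* without pig 5, 356 for *MYO1E* without pig 2, 152 for *MAML3* without pig 4 and 1235 and 1302 for *LOC100510904* without pigs 2 and 5. *RET* without pig 2, *HNF4A* without pig 5 and *MAML3* without pig 1 had 0 lrNK counts left. In liver CD8α-high NK cells 21 of the 29 had at least 10 counts in all 5 libraries and none was under the floor in all 5.

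The 12 genes of lrNK cells were led by *MYO3A*, a class III myosin at chromosome 10, bases 49392119 to 49623575 of Sscrofa11.1, with 0 counts in every blood library and 117, 54, 159, 181 and 191 counts in lrNK cells of pigs 1 to 5, at least 55.4-fold higher. Granzyme K (*GZMK*, chromosome 16, bases 34217339 to 34226139) had 0, 3, 0, 3 and 0 counts in blood and 54, 112, 39, 262 and 229 in lrNK cells, a ratio of lrNK over blood of 139 (95% interval 63.6 to 381), which was 215 without pig 2, and 10, 6, 7, 24 and 0 in liver CD8α-high NK cells. Syndecan-1 (*SDC1*), a heparan sulfate proteoglycan and a marker of plasma cells, had 0 counts in blood and 111, 44, 58, 99 and 97 counts in lrNK cells, at least 32.6-fold higher. The plasma cell markers *JCHAIN*, *POU2AF1* and *TXNDC5* rose too, and the part of plasma cells in the *SDC1* level was not tested. The signalling protein *WNT5B* had 0 counts in blood and 59, 19, 27, 141 and 154 in lrNK cells, at least 27.8-fold higher, and overlaps *FBXL14*, which rose less (log2 fold change 0.66, adjusted p = 0.0339, edgeR). *RASGRP3*, an activator of Ras that is also active in B cells, had 3, 0, 2, 0 and 0 counts in blood and 23, 72, 45, 39 and 50 in lrNK cells, and 0 in every liver CD8α-high library. *AFDN* (afadin), an adaptor of nectins at cell junctions, had 0 counts in blood and 31, 42, 33, 31 and 24 in lrNK cells. The list also held *TMEM117*, *DOPEY2* and 3 long non-coding RNAs, 2 of which overlap *RASGEF1B* and each other. Of the 12 genes 8 had 0 counts in all 5 blood libraries, with lower bounds from 7.86-fold to 55.4-fold, and the other 4 had 2 to 6 counts summed over them, with ratios from 44.8 to 139.2. None of the 12 had 10 counts in all liver CD8α-high libraries, and 2 were at or under the floor in all of them. *FBXL14* was not called without pigs 1, 2, 4 and 5 in turn (adjusted p from 0.0617 to 0.189, edgeR).

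**Figure D3:**
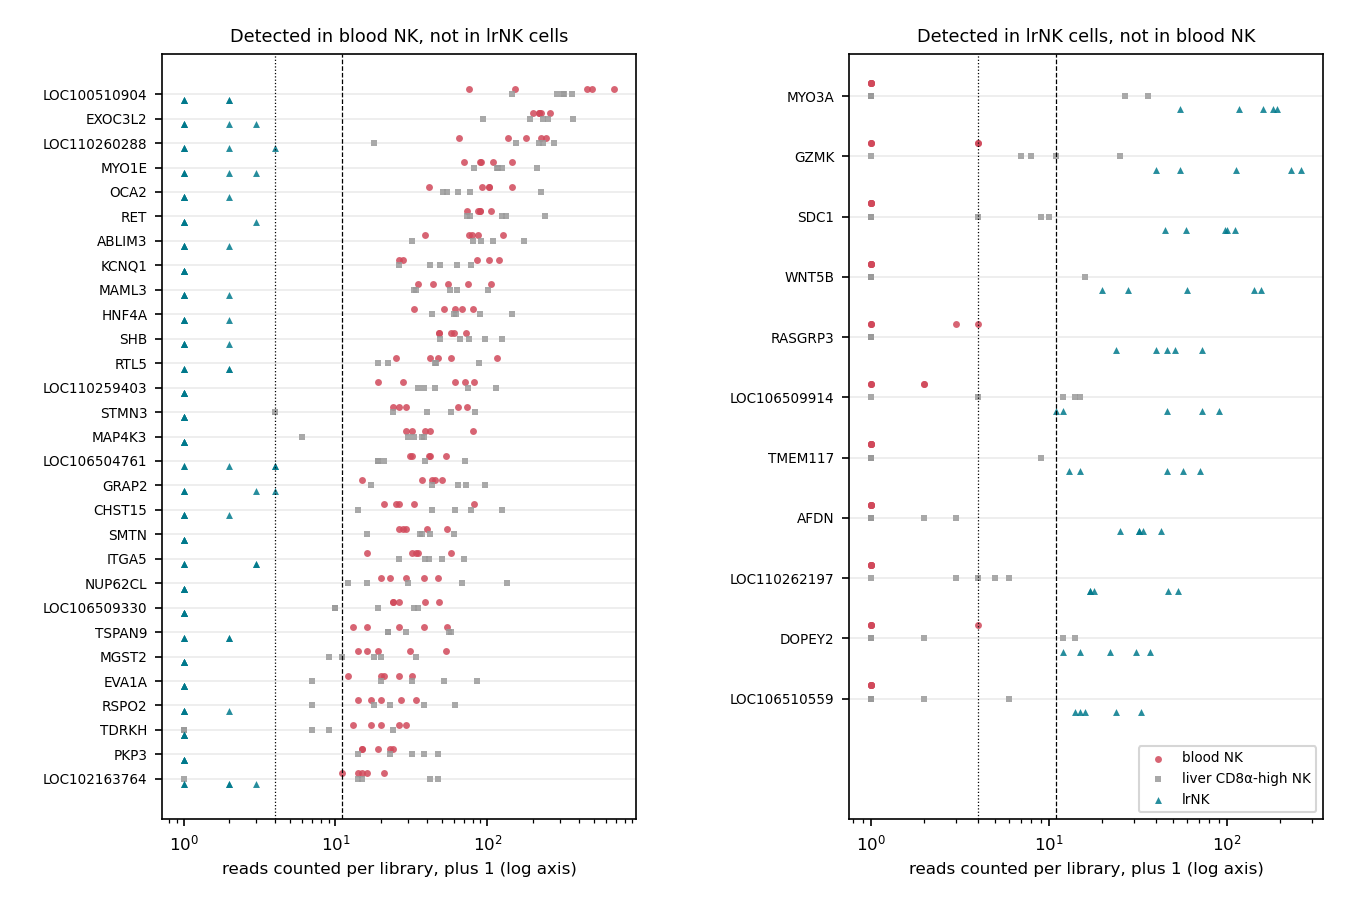
Reads counted per library, plus 1, on a log axis for the 29 genes detected in blood NK cells only (left) and 11 of the 12 detected in lrNK cells only (right), with circles for blood NK, squares for liver CD8α-high NK and triangles for lrNK cells. The dotted line is the floor of 3 counts and the dashed line the detection minimum of 10 counts, and the liver CD8α-high squares lie with the blood circles for most of the 29 genes.

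Within pigs, the differences between the populations of the same animal had the same direction in all 5 pigs for 1730 of the 1993 called genes (86.8%), in 4 pigs for 256, in 3 for 6 and in 1 pig for 1. Among all genes tested 25.9% had the same direction in all 5 pigs, and among those not called 12.4%. CPM ranges of the populations did not overlap for 1321 of the called genes (66.3%) and for 13.5% of all genes tested. As the calls come from a test on these same libraries, the higher shares among called genes follow from that choice and are a description only. Pig 3 was the most frequent exception, with 123 called genes that went against the fitted direction, while pigs 1, 2, 4 and 5 had 36, 47, 39 and 27. In 120 of the 123 genes pig 3 was the only animal against, 85 of the 123 were higher in lrNK cells, and all 123 were also called in the fit without pig 3. Without pig 3 895 genes were called higher and 1056 lower.

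Among the called genes with the lowest adjusted p that went against the fitted direction in a pig, *KLRB1*, which encodes the C-type lectin receptor CD161, was at 212, 329, 255, 386 and 191 CPM in blood against 1544, 1089, 193, 2316 and 1793 CPM in lrNK cells. It was higher in lrNK cells of pigs 1, 2, 4 and 5 and lower in pig 3 (log2 fold change 2.34, SE 0.42, adjusted p = 0.000348 in edgeR). The same held for *LOC733579*, at 111, 188, 162, 193 and 165 CPM in blood against 615, 747, 92.6, 835 and 529 CPM in lrNK cells (log2 fold change 1.78, SE 0.35, adjusted p = 0.00083 in edgeR), for the interferon-stimulated *IFIT3* and for the peptidase *CNDP2*. *SPRY2*, an inhibitor of Ras signalling, was at 112, 125, 87.4, 109 and 76.4 CPM in blood against 243, 123, 268, 317 and 207 CPM in lrNK cells, and the difference in pig 2 was -0.02 on the log2 scale.

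**Figure D4:**
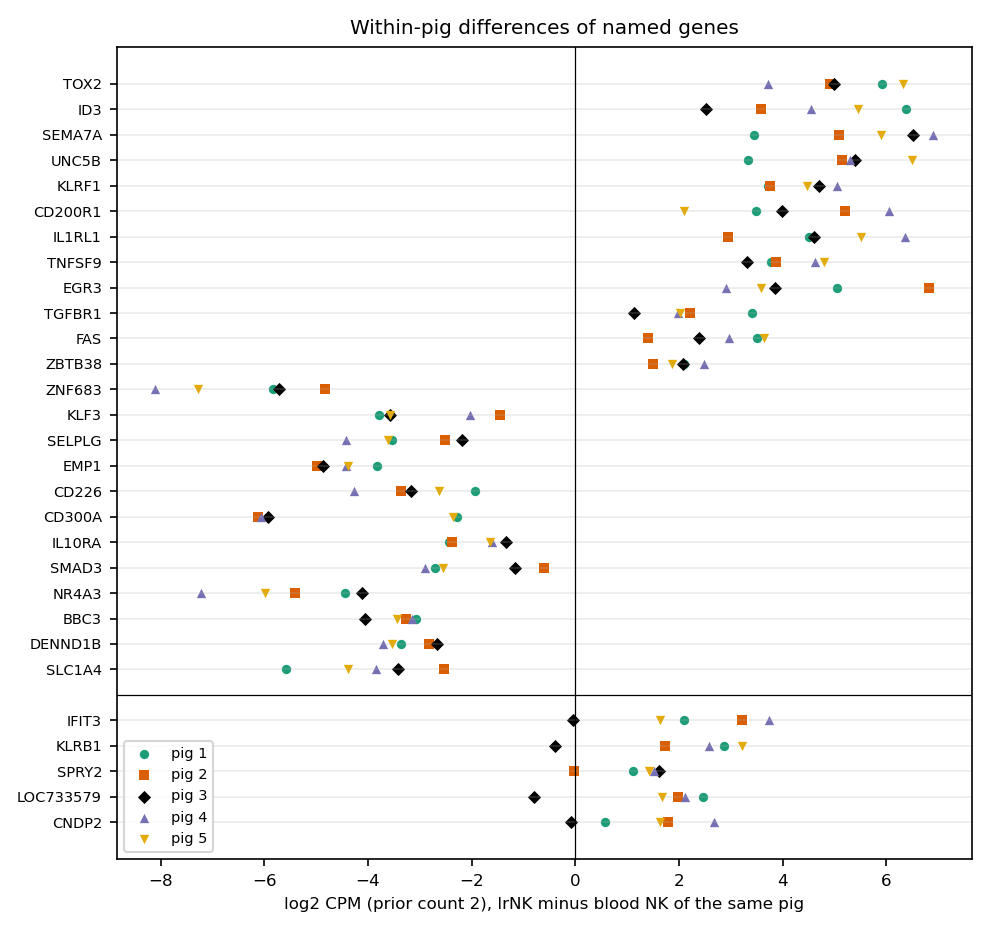
Difference of log2 CPM (prior count 2) between lrNK and blood NK cells of the same pig, with a symbol for each of the 5 pigs, for 24 called genes of the function lists (above the line) and 5 called genes with a pig that went against (below). The 24 genes were chosen among those with the same direction in all 5 pigs, so their points lie on one side of 0 by that choice, and pig 3 lies left of 0 for *IFIT3*, *KLRB1*, *LOC733579* and *CNDP2*.

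Genes were described by function in 28 lists, of which 1054 members were tested and 352 called (33.4%, against 18.2% of all genes tested), 189 higher and 163 lower. As the lists were drawn up with earlier results of these data known, their shares are a description. For the called genes whose 10 libraries are given in the paragraphs on function, all lrNK libraries lay on one side of all blood libraries, except for *PIK3R6*, but most were chosen for a large change with one direction in all 5 pigs, so nothing is read from that beside the shares of genes without overlap given above. In the counts for each list, higher and lower mean called higher and called lower. The median of a list is the median log2 fold change of its members tested, against 0.01 over all genes.

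**Figure D5:**
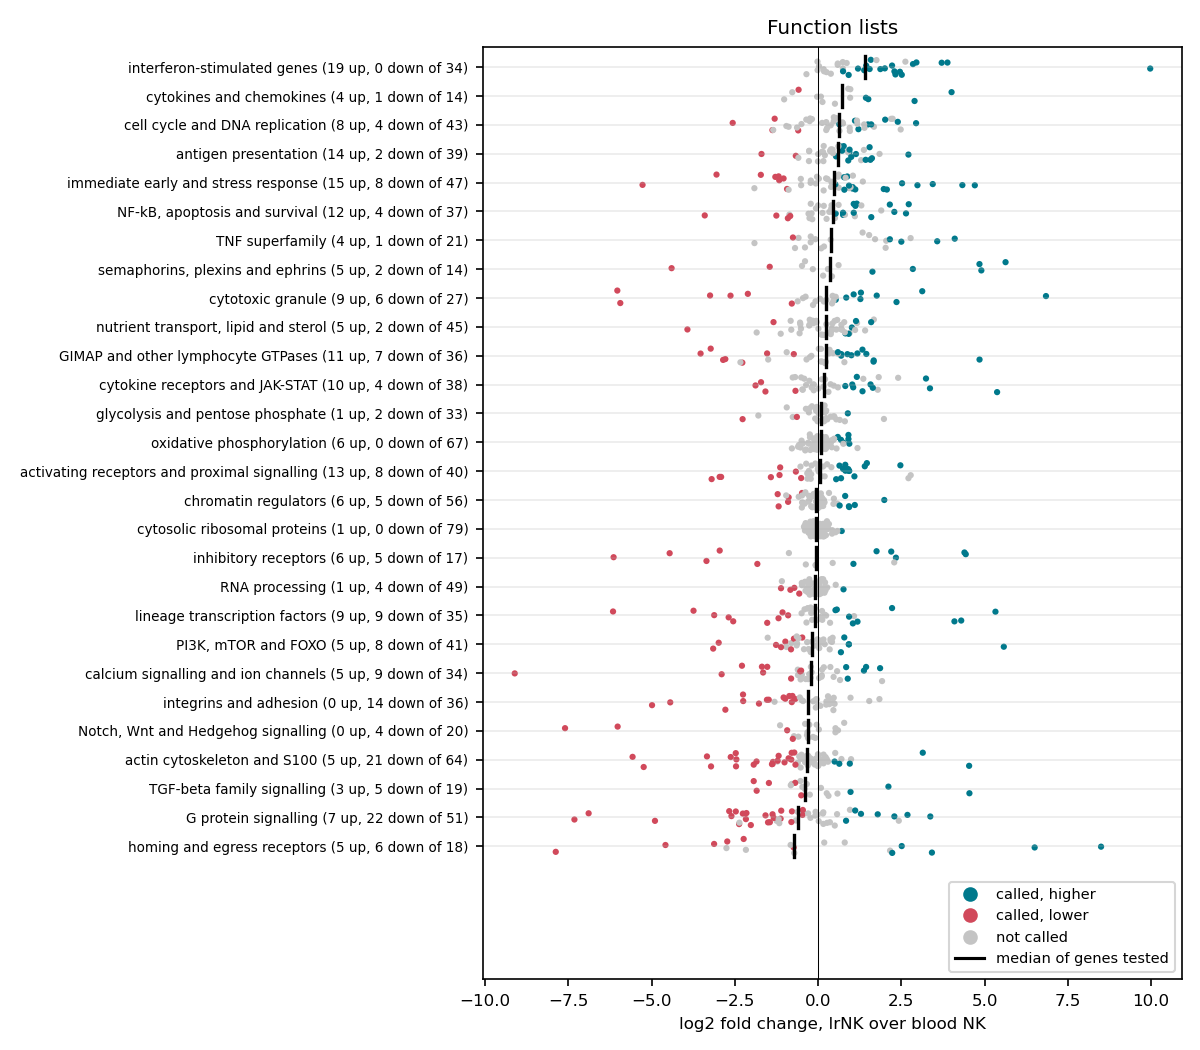
Log2 fold change of lrNK over blood NK cells for every tested member of the 28 function lists, ordered by the list's median (vertical bar), with called members in colour. Interferon-stimulated genes have the highest median, 1.42 with 19 higher and 0 lower of 34, and homing and egress receptors the lowest, -0.72, with called members on both sides.

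Transcription factors of lymphocyte development were split, with 9 higher and 9 lower of 35 tested (median -0.09). *TOX2*, a factor of NK cell maturation at chromosome 17, bases 46433005 to 46577076, was at 4.34, 4.11, 2.98, 6.87 and 1.02 CPM in blood against 299, 140.2, 113, 98.01 and 129 CPM in lrNK cells (log2 fold change 5.33, SE 0.62, adjusted p = 1.96e-06 in edgeR). *ID3*, an inhibitor of E proteins, was at 0, 5.21, 7.33, 2.89 and 1.71 CPM and 48.2, 68.6, 44.8, 81.2 and 101 CPM (log2 fold change 4.30, SE 0.72, adjusted p = 0.000185 in edgeR). In the other direction, *ZNF683* (Hobit), which in mice serves tissue residency of lymphocytes, was at 485, 593, 619.8, 623 and 616 CPM in blood against 7.89, 20.2, 11.2, 1.69 and 3.395 CPM in lrNK cells (log2 fold change -6.16, SE 0.41, adjusted p = 1.29e-09 in edgeR). It overlaps *CRYBG2*, which fell as well (log2 fold change -5.29, adjusted p = 2.18e-05, edgeR) from a mean of 19.9 CPM. *KLF3* was at 87.8, 97.6, 151, 108 and 128 CPM in blood against 5.81, 35.04, 12.2, 26.1 and 10.2 CPM in lrNK cells (log2 fold change -2.68, SE 0.35, adjusted p = 8.17e-06 in edgeR). Thus *TOX2* and *ID3* were higher and *ZNF683* and *KLF3* lower in every lrNK library than in any blood library. Smaller called changes were seen in *ZEB1*, *SATB1*, *ZBTB16*, *IKZF2* and *PRDM1*, which were higher, and *NFATC2*, *BHLHE40*, *RUNX3* and *KLF12*, which were lower. *ETS1* (1055 ± 107 and 1110.3 ± 117 CPM) and *IKZF1* (413 ± 42.8 and 404 ± 48.1 CPM) had log2 fold changes of 0.07 and -0.03 with 95% intervals within 0.5 of 0. *IKZF2* was not called without pigs 1, 2, 3 and 5 in turn (adjusted p from 0.0675 to 0.196, edgeR), nor *PRDM1* without pigs 1, 3, 4 and 5 in turn (adjusted p from 0.0611 to 0.106). *ID3* had a log2 fold change of 4.91 without pig 3 and *CRYBG2* of -6.997 without pig 5.

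Of 18 homing and egress receptors tested, 5 were higher and 6 lower. *XCR1*, the receptor of XCL1, had 1, 0, 0, 0 and 0 counts in blood NK cells of pigs 1 to 5 and 28, 9, 24, 18 and 40 in lrNK cells, a ratio of 143 (95% interval 25.1 to 5688), and without pig 1 had 0 blood counts left. It overlaps *CCR1*, which was too scarce to be tested, so their reads could be mixed. *CCR6*, the receptor of CCL20, was at 1.63, 3.02, 1.63, 0 and 0 CPM in blood against 19.5, 22.1, 16.6, 4.49 and 8.36 CPM in lrNK cells (log2 fold change 3.42, SE 0.92, adjusted p = 0.0144 in edgeR), and at 0 in all liver CD8α-high libraries. Without pig 1 its adjusted p was 0.0618 (edgeR). *CXCR3* and *CCR9* rose by 2.23 and 2.51 on the log2 scale. *SELPLG* (PSGL-1), the ligand of P-selectin on rolling leukocytes, was at 359.9, 256, 279.8, 253 and 334 CPM in blood against 30.3, 44.2, 60.9, 11.2 and 26.6 CPM in lrNK cells (log2 fold change -3.12, SE 0.29, adjusted p = 1.08e-07 in edgeR). *S1PR4*, a sphingosine-1-phosphate receptor, was at 149, 146, 178, 66.9 and 139.5 CPM and 16.2, 28.3, 23.4, 23.6 and 12.01 CPM (log2 fold change -2.73, SE 0.26, adjusted p = 1.54e-07 in edgeR). *P2RY8* and *CXCR5* were also lower, and *CXCR5* overlaps the end of *BCL9L*, which fell by 1.02. *CCR9* was not called without pigs 2, 3 and 5 in turn (adjusted p from 0.0667 to 0.154, edgeR), nor *CXCR5* without pigs 1, 3 and 5 in turn (adjusted p from 0.0661 to 0.112). *CXCR3* had a log2 fold change of 1.502 without pig 3 and *CCR9* of 3.17 without pig 1.

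No member of the integrin and adhesion list was called higher, and 14 of 36 were called lower (median -0.30, from -4.98 to 1.84). Beside integrin chains, these included the membrane proteins *EMP1*, at 552, 537, 457, 683 and 571 CPM in blood against 38.2, 16.3, 15.1, 31.2 and 26.9 CPM in lrNK cells (log2 fold change -4.44, SE 0.25, adjusted p = 7.54e-11 in edgeR), and *EMP3*, at 185, 219.6, 166, 219 and 142 CPM and 15.4, 43.2, 19.97, 41.3 and 15.4 CPM (log2 fold change -2.78, SE 0.27, adjusted p = 1.61e-07 in edgeR). *RAP1B* and *RAPGEF1*, which act in the activation of integrins, fell, with log2 fold changes of -1.53 and -1.48. The tetraspanin *CD53* was at 1339 ± 136 CPM in blood against 1336 ± 125 CPM in lrNK cells (log2 fold change 0.00, standard error 0.12). Actin and S100 genes had more members called lower than higher, with 5 higher and 21 lower of 64 (median -0.32). *S100A1* was at 185, 120.1, 184, 182 and 124 CPM in blood against 11.2, 12.5, 21.4, 23.03 and 10.4 CPM in lrNK cells (log2 fold change -3.34, SE 0.30, adjusted p = 8.07e-08 in edgeR), and overlaps *S100A13*, which is also lower. *CDC42EP3*, an effector of the GTPase Cdc42, was at 240.4, 199.5, 293, 211 and 339 CPM and 19.1, 18.7, 48.7, 26.1 and 26.1 CPM (log2 fold change -3.21, SE 0.26, adjusted p = 1.62e-08 in edgeR). Filamin A (*FLNA*), *ANXA2*, *MYO1F* and zyxin (*ZYX*) were lower too. *EVL*, which promotes actin filament growth, was in contrast at 1.897, 1.92, 2.71, 2.17 and 3.75 CPM in blood against 14.95, 26.9, 21.4, 24.99 and 22.7 CPM in lrNK cells (log2 fold change 3.14, SE 0.67, adjusted p = 0.00175 in edgeR). The actin-bundling *LCP1* (1254 ± 219 and 1251 ± 259 CPM) and thymosin *TMSB10* (1979 ± 224 and 1848 ± 425 CPM) were not called.

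Semaphorins, plexins and ephrins, which guide axons and also act between immune cells, had 5 members higher and 2 lower of 14. *SEMA7A*, a membrane-anchored semaphorin at chromosome 7, bases 59094919 to 59119534, was at 5.69, 3.02, 0.543, 0.723 and 3.07 CPM in blood against 67.7, 121, 102, 156 and 216 CPM in lrNK cells (log2 fold change 5.63, SE 0.65, adjusted p = 1.99e-06 in edgeR). *UNC5B*, a netrin receptor, was at 9.48, 1.92, 0.814, 1.81 and 0.682 CPM and 101, 88.3, 58.5, 94.1 and 114 CPM (log2 fold change 4.90, SE 0.76, adjusted p = 8.06e-05 in edgeR). *NRP1* (neuropilin-1) and *EPHB6* rose by 2.85 and 1.63 on the log2 scale, and *PLXND1* fell from 53.7 ± 7.32 to 19.8 ± 10.5 CPM (log2 fold change -1.45, SE 0.29, adjusted p = 0.000972 in edgeR). Each lrNK library was above each blood library for *SEMA7A* and *UNC5B*. *SEMA7A* had a log2 fold change of 6.32 without pig 1 and *UNC5B* of 6.06 without pig 1.

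In the cytotoxic granule list 9 of 27 members were higher and 6 lower, and the granzymes differed in direction. Beside *GZMK*, granzyme H (*GZMH*) was at 356, 363, 695, 20.6 and 319 CPM in blood against 9.55, 2.88, 16.6, 0 and 2.35 CPM in lrNK cells (log2 fold change -5.94, SE 0.94, adjusted p = 0.000101 in edgeR). The *GZMH* level of blood pig 4 was close to the highest lrNK level, and the other 4 blood libraries lay between 319 and 695 CPM. Granzymes B and M (*GZMB*, *GZMM*) fell, with log2 fold changes of -2.63 and -2.11. The granzyme B inhibitor *SERPINB9* was at 5.69, 18.9, 16.6, 13.7 and 10.9 CPM in blood against 2.49, 1.92, 0, 0 and 2.35 CPM in lrNK cells (log2 fold change -3.24, SE 0.70, adjusted p = 0.00217 in edgeR). Serglycin (*SRGN*), the proteoglycan that stores granule proteins, was at 120.3, 113, 212, 197 and 113 CPM and 618, 469, 473, 546 and 454 CPM (log2 fold change 1.76, SE 0.24, adjusted p = 1.75e-05 in edgeR). *UNC13D* and *STX11*, which act in granule release, rose by 1.27 and 1.07 on the log2 scale. Perforin (*PRF1*) was at 351, 312, 331, 272 and 256 CPM in blood against 221, 209.8, 574, 305 and 278 CPM in lrNK cells and was not called (log2 fold change 0.06, adjusted p = 0.9, edgeR).

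Few cytokines were measurable: 17 of 31 in the table did not pass the filter on low counts, and of the 14 tested 4 were higher and 1 lower. *IL7*, a survival factor of lymphocytes, was at 1.08, 0, 1.36, 0 and 1.71 CPM in blood against 14.1, 5.76, 38.5, 4.49 and 7.31 CPM in lrNK cells (log2 fold change 4.01, SE 1.14, adjusted p = 0.0169 in edgeR). The highest lrNK library was that of pig 3, and adjusted p was 0.0748 without pig 3 and 0.0599 without pig 1 (edgeR). *IL16* was at 199.99, 160.3, 131, 95.04 and 136 CPM and 515, 346, 555, 356 and 289 CPM (log2 fold change 1.51, SE 0.24, adjusted p = 8.37e-05 in edgeR), with all lrNK libraries above all blood libraries. *CCL4* and *XCL1* rose by 2.90 and 1.44 on the log2 scale, each with a pig that went against. *TGFB1* was at 175, 137, 189, 139.8 and 141 CPM in blood against 98.01, 109, 128, 79.2 and 107 CPM in lrNK cells (log2 fold change -0.58, SE 0.17, adjusted p = 0.0215 in edgeR), and its adjusted p was 0.112, 0.0701 and 0.0633 without pigs 1, 4 and 5 and 0.0504 when only the 10 libraries were fitted with the pig as a block (edgeR). The chemokine *CCL5* was at 1828 ± 175 CPM in blood against 1939 ± 612 CPM in lrNK cells and was not called. *CCL4* was not called without pig 5 (adjusted p of 0.111, edgeR), nor *XCL1* without pigs 2 and 5 in turn (adjusted p from 0.0954 to 0.0966). *CCL4* had a log2 fold change of 3.61 without pig 2 and 2.22 without pig 5.

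Of 40 activating receptors and proximal signalling genes, 13 were higher and 8 lower. *CD226* (DNAM-1), which binds nectin-family ligands on target cells, was at 109, 139, 122, 119 and 117 CPM in blood against 28.2, 12.96, 13.2, 5.62 and 18.5 CPM in lrNK cells (log2 fold change -2.96, SE 0.29, adjusted p = 2.14e-07 in edgeR). *CRTAM*, also a receptor of a nectin-like ligand, moved the other way, from 102, 109, 122, 54.2 and 114 CPM to 139.5, 197, 279.6, 215 and 239 CPM (log2 fold change 1.09, SE 0.21, adjusted p = 0.000719 in edgeR). *SH2D1B*, an adaptor of SLAM receptors, was at 94.03, 62.8, 68.7, 99.01 and 41.6 CPM and 223, 122, 188, 279.99 and 197 CPM (log2 fold change 1.46, SE 0.34, adjusted p = 0.00397 in edgeR), and has near-equal counts with the overlapping *C4H1orf226*. *NCR3* (NKp30) and *FCGR3A* (CD16) fell, with log2 fold changes of -2.91 and -1.42, and *CD244*, *CD84* and *SLAMF6* rose by 0.82, 0.91 and 1.40. The phosphatase *PTPRC* (CD45), which marks all leukocytes, was at 6643 ± 457 CPM in blood against 6618 ± 642 CPM in lrNK cells (log2 fold change -0.01, standard error 0.12).

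Inhibitory receptors also had called members in both directions, with 6 higher and 5 lower of 17. *CD200R1*, the receptor of CD200, was at 0.542, 0.274, 0, 0.361 and 5.46 CPM in blood against 12.04, 31.2, 8.77, 62.6 and 25.3 CPM in lrNK cells (log2 fold change 4.43, SE 0.85, adjusted p = 0.000718 in edgeR). *KLRF1*, a lectin-like receptor grouped with this list although in human NK cells it activates, was at 7.59, 7.67, 1.8996, 3.61 and 6.82 CPM and 106, 111, 63.8, 139 and 164 CPM (log2 fold change 4.39, SE 0.54, adjusted p = 3.88e-06 in edgeR). *CD300A*, which recognises phospholipids, was at 56.6, 40.6, 65.4, 38.7 and 73.7 CPM in blood against 11.2, 0, 0.487, 0 and 13.8 CPM in lrNK cells (log2 fold change -3.35, SE 0.67, adjusted p = 0.00109 in edgeR). The lrNK levels of *CD300A* were 0 to 0.487 CPM in pigs 2, 3 and 4 and 11.2 and 13.8 CPM in pigs 1 and 5. *CD52* and *VSIR* fell, with log2 fold changes of -2.95 and -1.82. The sign of this list's median depended on the setting, from -0.08 to 0.35. *CD200R1* had a log2 fold change of 3.67 without pig 4 and 6.47 without pig 5, *CD300A* of -4.09 without pig 5 and *CD52* of -3.72 without pig 3.

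Cytokine receptors and JAK-STAT genes had 10 members higher and 4 lower of 38. The highest of them by fold was *IL1RL1*. *IL1RL1*, the receptor of IL-33, was at 0.813, 1.096, 2.17, 0 and 0.341 CPM in blood against 31.1, 12.5, 66.2, 47.7 and 42.1 CPM in lrNK cells (log2 fold change 5.37, SE 0.81, adjusted p = 5.41e-05 in edgeR). *IL18R1*, a chain of the IL-18 receptor, was at 52.3, 24.4, 14.9, 28.5 and 28.7 CPM and 475, 159, 326, 235 and 335 CPM (log2 fold change 3.36, SE 0.58, adjusted p = 0.000228 in edgeR), and its partner *IL18RAP* rose by 3.24 on the log2 scale. The type I interferon receptor chains *IFNAR1* and *IFNAR2* rose by 1.05 and 1.64. *IL10RA* was at 200.3, 204, 165, 151 and 143 CPM in blood against 36.5, 38.9, 65.3, 49.1 and 45.2 CPM in lrNK cells (log2 fold change -1.88, SE 0.19, adjusted p = 2.27e-07 in edgeR), and *SOCS2*, a feedback inhibitor, fell from 21.7 ± 12.7 to 6.35 ± 4.71 CPM (log2 fold change -1.71, SE 0.50, adjusted p = 0.0199 in edgeR). Adjusted p of *SOCS2* was 0.0605 without pig 2, 0.142 without pig 4, 0.0602 in a fit of only the 10 libraries and 0.0575 when that fit had the pig as a block (edgeR).

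Of the TGF-β family list 3 members were higher and 5 lower of 19. The type I receptor *TGFBR1* was at 7.59, 21.1, 24.4, 27.8 and 19.1 CPM in blood against 86.4, 100.3, 54.6, 111 and 79.4 CPM in lrNK cells (log2 fold change 2.11, SE 0.31, adjusted p = 4.81e-05 in edgeR). The receptor-regulated *SMAD3* was at 57.2, 39.2, 47.5, 45.9 and 50.5 CPM and 8.31, 25.4, 20.9, 5.62 and 8.097 CPM (log2 fold change -1.84, SE 0.35, adjusted p = 0.000718 in edgeR), and overlaps *AAGAB*, which fell as well. *SMAD6*, an inhibitory Smad, had 5, 0, 0, 0 and 0 counts in blood and 31, 5, 14, 25 and 32 in lrNK cells (log2 fold change 4.54, SE 1.26, adjusted p = 0.0139 in edgeR), with an adjusted p of 0.0507 without pig 5 (edgeR). Without pig 1, whose blood library held all its blood reads, the fitted log2 fold change was 7.44, which then depends on the prior count. *TGIF1*, a repressor that binds Smads, was at 31.4, 21.4, 32.8, 24.6 and 19.8 CPM and 4.15, 11.5, 0, 11.5 and 6.27 CPM (log2 fold change -1.93, SE 0.47, adjusted p = 0.00571 in edgeR), with an adjusted p of 0.0563 when only the 10 libraries were fitted with the pig as a block. *SMURF2*, *SMAD7* and *SMAD4* fell, with log2 fold changes of -1.48, -0.69 and -0.51, and *SKIL* rose by 0.97. Of the Notch, Wnt and Hedgehog list, 0 members were higher and 4 lower of 20. *AXIN2*, a target and inhibitor of Wnt signalling, was at 55.6, 60.9, 73.5, 63.2 and 70.6 CPM in blood, 67.6 ± 16.9 CPM in liver CD8α-high NK and 0, 4.32, 0, 0.562 and 0.522 CPM in lrNK cells (log2 fold change -6.02, SE 0.50, adjusted p = 2.58e-08 in edgeR). The corepressor *TLE4* fell from 127 ± 24.2 to 66.7 ± 6.15 CPM (log2 fold change -0.93, SE 0.17, adjusted p = 0.000343 in edgeR). *SMURF2* was not called without pigs 1, 3, 4 and 5 in turn (adjusted p from 0.0722 to 0.162, edgeR), nor *SMAD7* without pigs 1, 2, 4 and 5 in turn (adjusted p from 0.0512 to 0.122), nor *SMAD4* without pigs 2, 4 and 5 in turn (adjusted p from 0.0869 to 0.148). *AXIN2* had a log2 fold change of -7.49 without pig 2.

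Of 34 interferon-stimulated genes tested, 19 rose, 0 fell and 15 were not called, with a median of 1.42, which stayed between 1.07 and 1.55 over the alternatives. *ISG20*, an antiviral exonuclease, had 0 counts in all blood libraries and 52, 130, 6, 153 and 208 counts in lrNK cells, at least 40.4-fold higher. *MX1*, a GTPase that blocks viral replication, was at 10.3, 28.8, 8.68, 7.23 and 11.3 CPM in blood against 76.4, 495, 49.7, 295 and 72.1 CPM in lrNK cells (log2 fold change 3.88, SE 0.64, adjusted p = 0.000144 in edgeR). The lrNK libraries of pigs 2 and 4 were far above those of pigs 1, 3 and 5 for *MX1*, and *IFIT3* was also highest in pigs 2 and 4, with 58.97, 129, 17.5, 162 and 78.6 CPM. Of the 19, *IFIT1*, *IFIT3* and *NMI* were lower in lrNK cells of pig 3, by differences of -0.44, -0.05 and -0.06 on the log2 scale. The B cell marker sum was highest in the same lrNK libraries, at 985 CPM in pig 2 and 1026 CPM in pig 4 against 373 to 644 CPM in the other pigs. Levels of *ISG20* in the lrNK libraries of pigs 1 to 5 were 21.6, 62.4, 2.92, 43.0 and 54.3 CPM. Whether any of these genes followed the B cell sum across pigs was not tested. *USP18*, *HERC5*, *IFI6* and *ISG15* rose by 3.71, 2.95, 2.85 and 2.22 on the log2 scale. *IRF1*, a factor induced by interferon γ, was at 195 ± 24.2 CPM in blood against 221 ± 25.2 CPM in lrNK cells, lies wholly within *SLC22A5* and was not called. Antigen presentation genes had 14 members higher and 2 lower of 39 (median 0.61). *CD74*, the invariant chain of MHC class II, was at 26.8, 21.7, 31.5, 23.1 and 22.9 CPM in blood against 54.8, 82.1, 83.8, 99.1 and 54.8 CPM in lrNK cells (log2 fold change 1.57, SE 0.29, adjusted p = 0.000442 in edgeR). *SLA-DOB*, a chain of a modulator of class II loading that B cells express, was at 7.59, 9.32, 8.14, 5.06 and 0 CPM and 35.7, 72.96, 9.74, 67.1 and 14.9 CPM (log2 fold change 2.71, SE 0.69, adjusted p = 0.00801 in edgeR), with an adjusted p of 0.0606 without pig 4 (edgeR). The class I genes *TAP1*, *TAPBP* and *PSMB9* rose by 0.54, 1.00 and 0.72, while *SLA-3* fell from 1372 ± 141 to 863 ± 239 CPM (log2 fold change -0.67, SE 0.18, adjusted p = 0.0133 in edgeR), a gene whose reads could be shared with the overlapping *SLA-2* and whose adjusted p was 0.0638 without pig 2 and 0.0538 without pig 3 (edgeR). *CD80* was at 54.2, 45.5, 63.5, 53.1 and 75.4 CPM and 15.8, 31.2, 2.44, 21.6 and 18.3 CPM (log2 fold change -1.70, SE 0.35, adjusted p = 0.00153 in edgeR), and overlaps *TIMMDC1*, which fell by 0.79. B cells also carry class II molecules. The sort took CD8α-dim cells without CD3 and CD172a, and no B cell marker is named among its stains. B cell markers summed to 373 to 1026 CPM in these lrNK libraries and to 63.1 to 179 CPM in blood, where their part in the class II and interferon-stimulated levels was not tested. *IFIT1* was not called without pigs 1, 4 and 5 in turn (adjusted p from 0.0527 to 0.242, edgeR), nor *NMI* without pigs 2, 4 and 5 in turn (adjusted p from 0.0907 to 0.16), nor *ISG15* without pig 4 (adjusted p of 0.197). *TAPBP* was not called without pig 3 (adjusted p of 0.0542, edgeR), nor *TIMMDC1* without pigs 1, 2, 3, 4 and 5 in turn (adjusted p from 0.066 to 0.1). *USP18* had a log2 fold change of 4.49 without pig 3 and *ISG15* of 1.504 without pig 4.

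Immediate early and stress genes were mixed, with 15 higher and 8 lower of 47. *EGR3*, an early growth response factor, was at 1.63, 0, 2.17, 4.34 and 8.19 CPM in blood against 73.1, 65.8, 39.5, 36.2 and 104 CPM in lrNK cells (log2 fold change 4.33, SE 0.59, adjusted p = 1.63e-05 in edgeR), and at 36.9 ± 19.3 CPM in liver CD8α-high NK cells. The orphan nuclear receptor *NR4A3* was at 219, 107, 119, 87.5 and 219.7 CPM in blood against 9.55, 1.92, 6.33, 0 and 2.87 CPM in lrNK cells (log2 fold change -5.27, SE 0.51, adjusted p = 2.03e-07 in edgeR), while its relative *NR4A2* rose by 1.97 on the log2 scale. *DUSP4* and *DUSP5*, phosphatases that act on MAP kinases, rose by 2.52 and 2.98, and *DUSP6* fell by 1.18. *HSPA1L*, a chaperone of the HSP70 family, had 0, 6, 0, 0 and 0 counts in blood and 28, 14, 32, 43 and 15 in lrNK cells (log2 fold change 4.71, SE 1.16, adjusted p = 0.00608 in edgeR). Without pig 2, whose blood library held those reads, its fitted log2 fold change was 8.22, which likewise depends on the prior count. *HSPA1L* overlaps other HSP70 genes, so its reads could be shared with them. *DUSP4* was not called without pigs 1 and 5 in turn (adjusted p from 0.0551 to 0.0774, edgeR), nor *DUSP6* without pig 4 (adjusted p of 0.054). *DUSP4* had a log2 fold change of 3.60 without pig 4.

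Of the NF-kB, apoptosis and survival list, 12 members were higher and 4 lower of 37. Genes that promote cell death were among both. The death receptor *FAS* was at 6.504, 20.8, 10.9, 6.505 and 6.82 CPM in blood against 80.2, 56.2, 58.9, 55.04 and 92.5 CPM in lrNK cells (log2 fold change 2.72, SE 0.35, adjusted p = 6.91e-06 in edgeR). Among BH3-only death genes *BMF* was at 10.8, 16.7, 8.41, 5.78 and 16.7 CPM and 49.8, 66.7, 146, 36.2 and 68.2 CPM (log2 fold change 2.64, SE 0.40, adjusted p = 6.13e-05 in edgeR), and *PMAIP1* (Noxa) rose by 2.15 on the log2 scale. *BBC3* (PUMA) went the other way, with 234, 190.2, 172, 119.97 and 119 CPM in blood against 27.4, 19.2, 9.74, 12.9 and 10.4 CPM in lrNK cells (log2 fold change -3.40, SE 0.30, adjusted p = 4.93e-08 in edgeR), as did *BCL2L11* (Bim), from 342 ± 65.2 to 183 ± 90.6 CPM (log2 fold change -0.91, SE 0.25, adjusted p = 0.0135 in edgeR). Adjusted p of *BCL2L11* was 0.0903 without pig 1 and 0.0807 without pig 5 (edgeR). *NFKBIA* and *NFKBIZ*, of the IκB family of NF-kB regulators, rose by 1.597 and 2.29 and *TNFAIP3* fell by 1.25. In the TNF superfamily 4 members were higher and 1 lower of 21. *TNFSF9* (4-1BB ligand) was at 18.4, 10.1, 11.13, 8.31 and 6.48 CPM in blood against 259.6, 157, 115, 219 and 195 CPM in lrNK cells (log2 fold change 4.10, SE 0.44, adjusted p = 7.27e-07 in edgeR), and *TNFSF14* (LIGHT) and *TNFSF4* (OX40 ligand) rose by 2.50 and 2.16. *TNFRSF13C*, the BAFF receptor of B cells, was at 1.35, 3.02, 3.799, 0 and 2.73 CPM and 21.2, 48.5, 5.36, 43.8 and 14.9 CPM (log2 fold change 3.58, SE 0.84, adjusted p = 0.00425 in edgeR), alongside the B cell markers, whose part in it was not tested. *PMAIP1* was not called without pigs 1, 2, 3 and 4 in turn (adjusted p from 0.0674 to 0.0939, edgeR), nor *TNFAIP3* without pigs 2 and 4 in turn (adjusted p from 0.0644 to 0.0738). *PMAIP1* had a log2 fold change of 2.78 without pig 5 and *NFKBIZ* of 2.88 without pig 2.

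G protein signalling had 22 members lower and 7 higher of 51 (median -0.61). *ARRB1*, a β-arrestin that uncouples receptors, was at 29.8, 10.7, 9.498, 22.04 and 30.4 CPM in blood against 0.831, 1.44, 0, 0 and 1.04 CPM in lrNK cells (log2 fold change -4.90, SE 0.70, adjusted p = 3.16e-05 in edgeR), and *ARRB2* fell by 2.47 on the log2 scale. The histamine receptor *HRH2* had 30, 11, 15, 11 and 7 counts in blood and 0 in every lrNK library, at least 3.74-fold lower. The prostaglandin receptors *PTGER4*, *PTGDR* and *PTGER2* fell, with log2 fold changes of -2.15, -2.02 and -1.33. In the other direction, the receptor kinase *GRK3* was at 21.7, 9.59, 3.799, 2.53 and 2.73 CPM and 101, 81.6, 139, 50.8 and 54.3 CPM (log2 fold change 3.37, SE 0.71, adjusted p = 0.00173 in edgeR), and *LPAR6*, a lysophosphatidic acid receptor, at 43.4, 41.1, 47.2, 53.5 and 48.8 CPM and 331, 227, 174, 297 and 472 CPM (log2 fold change 2.68, SE 0.35, adjusted p = 1.07e-05 in edgeR). *LPAR6* lies within *RB1*, which rose by 1.59. *PTGER2* was not called without pigs 3, 4 and 5 in turn (adjusted p from 0.0755 to 0.21, edgeR). *GRK3* had a log2 fold change of 4.09 without pig 1.

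Calcium signalling and ion channels had 5 members higher and 9 lower of 34. Beside *KCNQ1*, the mechanically gated channel *PIEZO1* was at 12.7, 10.7, 14.7, 27.5 and 10.9 CPM in blood against 0.831, 2.4000, 1.95, 1.404 and 3.395 CPM in lrNK cells (log2 fold change -2.89, SE 0.48, adjusted p = 0.000148 in edgeR). It overlaps *CTU2*, which fell as well (log2 fold change -2.04, adjusted p = 0.00193, edgeR). All calcineurin catalytic subunits, *PPP3CA*, *PPP3CB* and *PPP3CC*, fell, with log2 fold changes of -0.81, -0.54 and -1.69. The calmodulin kinase *CAMK4* was at 221, 125, 149.8, 185 and 187 CPM and 395, 412, 488, 456 and 606 CPM (log2 fold change 1.44, SE 0.20, adjusted p = 1.96e-05 in edgeR). In the PI3K, mTOR and FOXO list 5 members were higher and 8 lower of 41. *TSC22D3* (GILZ) and *SGK1*, both induced by glucocorticoids, were lower, *TSC22D3* at 464, 773, 614, 638 and 513 CPM in blood against 54.4, 189, 16.6, 58.98 and 62.2 CPM in lrNK cells (log2 fold change -2.98, SE 0.41, adjusted p = 1.89e-05 in edgeR) and *SGK1* at 28.2, 72.9, 18.995, 149.97 and 20.1 CPM and 4.57, 4.7999, 7.79, 5.62 and 9.403 CPM (log2 fold change -3.15, SE 0.51, adjusted p = 0.000128 in edgeR). *PIK3R6*, a regulatory subunit of PI3K γ, was at 0, 0, 1.09, 0 and 0 CPM and 14.1, 20.2, 14.6, 0.843 and 14.4 CPM (log2 fold change 5.58, SE 1.17, adjusted p = 0.00158 in edgeR), with pig 4 apart from the other 4 lrNK libraries. Without pig 3, whose blood library held the reads, the fitted log2 fold change of *PIK3R6* was 8.42, which depends on the prior count. The PI3K catalytic subunit *PIK3CG* was at 503 ± 45.1 CPM in blood against 492 ± 146 CPM in lrNK cells and was not called. *PPP3CB* was not called without pigs 1, 2, 4 and 5 in turn (adjusted p from 0.0613 to 0.22, edgeR). *CTU2* had a log2 fold change of -2.69 without pig 5 and *SGK1* of -2.38 without pig 4.

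Small GTPases and their regulators had 11 members higher and 7 lower of 36. *SPRY1*, an inhibitor of Ras signalling, was at 2.98, 0.548, 0.543, 0 and 2.73 CPM in blood against 34.1, 13.9, 45.3, 53.9 and 54.3 CPM in lrNK cells (log2 fold change 4.85, SE 0.78, adjusted p = 0.00011 in edgeR). *RASSF2* was at 71.5, 64.7, 66.8, 44.4 and 48.1 CPM and 157, 214, 187, 178 and 208 CPM (log2 fold change 1.67, SE 0.20, adjusted p = 3.16e-06 in edgeR). *DENND1B*, which activates Rab35, was at 214, 194, 199, 206 and 189 CPM in blood against 20.4, 26.9, 30.7, 15.2 and 15.7 CPM in lrNK cells (log2 fold change -3.22, SE 0.20, adjusted p = 3.74e-10 in edgeR). *RAP1GAP2* fell from 163 ± 39.2 to 22.3 ± 10.1 CPM (log2 fold change -2.85, SE 0.30, adjusted p = 4.04e-07 in edgeR). *GIMAP4*, which overlaps *GIMAP7*, and *GIMAP8* rose by 1.67 and 1.00 on the log2 scale, and *GIMAP1* (1201 ± 216 and 1277 ± 285 CPM) was not called. *GIMAP8* was not called without pigs 1 and 4 in turn (adjusted p from 0.0554 to 0.103, edgeR). *SPRY1* had a log2 fold change of 5.44 without pig 1.

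Cell cycle and DNA replication genes had 8 members higher and 4 lower of 43. *MKI67*, the proliferation marker Ki-67, was at 43.6, 24.4, 24.2, 103 and 63.5 CPM in blood against 7.89, 3.36, 13.6, 11.8 and 6.79 CPM in lrNK cells (log2 fold change -2.56, SE 0.51, adjusted p = 0.00109 in edgeR), and the cyclin kinase inhibitor *CDKN1B* (p27) at 159, 189.95, 231, 165 and 145 CPM and 65.2, 100.3, 14.6, 95.8 and 67.1 CPM (log2 fold change -1.37, SE 0.30, adjusted p = 0.00246 in edgeR). *E2F2* was at 4.34, 9.87, 3.26, 10.5 and 10.9 CPM and 81.4, 35.5, 89.1, 50.8 and 41.01 CPM (log2 fold change 2.94, SE 0.51, adjusted p = 0.000246 in edgeR), and the DNA synthesis genes *RRM2* and *TYMS* rose by 1.497 and 1.21 on the log2 scale. The mitotic kinesin *KIF11* rose from 1.65 ± 0.993 to 8.74 ± 4.31 CPM (log2 fold change 2.39, SE 0.74, adjusted p = 0.0275 in edgeR), and its adjusted p was 0.0558 with the pig as a block, 0.0762 when that fit held only the 10 libraries, 0.0678 without pig 3 and 0.143 without pig 4 (edgeR). *RRM2* was highest in lrNK pig 3, at 30.2 CPM against at most 12.6 CPM in the other lrNK libraries. *RRM2* was not called without pigs 1, 2, 3, 4 and 5 in turn (adjusted p from 0.0596 to 0.197, edgeR), nor *TYMS* without pig 4 (adjusted p of 0.0672).

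Genes of metabolism and of the basic machinery had few calls in some lists and not in others. Of the glycolysis and pentose phosphate list, 1 was higher and 2 lower of 33, of nutrient transport, lipid and sterol genes 5 and 2 of 45, of oxidative phosphorylation subunits 6 and 0 of 67, of RNA processing genes 1 and 4 of 49, of chromatin regulators 6 and 5 of 56, and of cytosolic ribosomal proteins 1 and 0 of 79. Called shares of the glycolysis (9.09%), oxidative phosphorylation (8.96%), RNA processing (10.2%) and ribosomal protein (1.27%) lists were below the 18.2% of all genes tested, while that of nutrient transport, lipid and sterol genes was 15.6% and that of chromatin regulators 19.6%, and no difference between lists was tested. Of the ribosomal proteins not called 26 had a 95% interval within 0.5 of 0 on the log2 scale, as did 17 RNA processing genes and 17 chromatin regulators. Single members differed clearly. *SLC1A4*, a transporter of neutral amino acids, was at 67.5, 53.2, 57.5, 52.4 and 38.9 CPM in blood against 0.831, 8.64, 4.87, 3.09 and 1.31 CPM in lrNK cells (log2 fold change -3.92, SE 0.40, adjusted p = 3.43e-07 in edgeR). *PDK1*, which inhibits pyruvate dehydrogenase, was at 21.7, 43.9, 25.2, 31.1 and 33.8 CPM and 6.23, 9.12, 0.487, 11.8 and 4.18 CPM (log2 fold change -2.27, SE 0.47, adjusted p = 0.00142 in edgeR). The methyl-CpG binding repressor *ZBTB38* was at 97.6, 124, 95.8, 70.5 and 116 CPM in blood against 417, 351, 407, 399 and 423 CPM in lrNK cells (log2 fold change 1.99, SE 0.19, adjusted p = 1.2e-07 in edgeR), with the lrNK libraries within 351 to 423 CPM. The histone methyltransferase *SETDB1* fell from 132 ± 30.6 to 56.7 ± 15.5 CPM (log2 fold change -1.21, SE 0.21, adjusted p = 0.00022 in edgeR), together with the overlapping *CERS2*. The splicing factor *SRSF5* fell from 563 ± 86.9 to 260.3 ± 80.6 CPM (log2 fold change -1.11, SE 0.19, adjusted p = 0.000218 in edgeR), and *ATP5L*, a subunit of ATP synthase, rose from 347 ± 43.2 to 653 ± 153 CPM (log2 fold change 0.91, SE 0.16, adjusted p = 0.000314 in edgeR). The ribosomal proteins *RPL7* (1504 ± 168 and 1391 ± 234 CPM) and *RPL31* (1905 ± 188 and 1939 ± 294 CPM) and the helicase *DDX17* (1129 ± 149 and 1305 ± 121 CPM) were not called.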

How the data were processed

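Libraries of blood NK, liver CD8α-high NK and lrNK cells from 5 pigs were prepared by the authors with a 3′ end kit, trimmed in QuasR, aligned with HISAT2 to Sscrofa11.1 and deposited as 1 table of counts per gene. The counting tool and its strand setting are not given in the sources used here, so reads of overlapping genes cannot be told apart. Of the 241 genes described 91 overlap another gene of the annotation, and the text names a partner only for some. The deposited counts were used as they stand, for 29886 genes and 15 libraries, and 12401 genes had 0 counts in the 10 libraries compared.

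Genes were kept by filterByExpr with the population as group, scaled by TMM and tested with glmQLFit and glmQLFTest in edgeR 4.0.16 (R 4.3.3). All 15 libraries entered the fit with population as the only term, after the study's own DESeq2 analysis, which states no block for the animal. Benjamini-Hochberg adjustment was over all 10939 genes tested, with a threshold of 0.05. DESeq2 1.42.0 was an alternative. Differences within pigs used log2 CPM with a prior count of 2. Marker sums were compared by exact permutation of the 10 libraries. Procedures were tested on simulated data.

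Numbers in the labels pair libraries by animal. After removal of population means, libraries of the same pig correlated weakly across genes, with a mean of 0.06 over 5 pairs (from -0.02 to 0.12), against -0.02 between different pigs. Replicates are different animals, and no pair of libraries agreed within sampling noise, with a lowest chi-square per degree of freedom of 10.8. With 1 library per animal and population, the spread between animals and between preparations cannot be told apart.

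The comparison, function lists and marker lists were chosen with earlier results of these data known. Named genes were the 4 markers, up to 2 largest rises and 2 largest falls per list among called genes with the same direction in all 5 pigs, up to 5 each way per band of BaseMean under 500, up to 12 genes per direction detected in 1 population, 6 called genes with a pig that went against, and up to 2 genes per list with the narrowest interval among those not called. Genes already described elsewhere were passed over by this rule, and a few items that it gave are not reported here. Other genes are named from the same lists and were chosen after their values were seen. Gene coordinates are those of RefSeq for Sscrofa11.1, in which 29862 of 29886 gene names were found.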

Additional observations from a re-analysis of the deposited data

Results flagged for a closer look

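Among 466 sets of 5 libraries of 1 population, for the genes and marker sums described, 29 had a library that stood apart from the other 4 by Dixon's test at the 95% level on log2 values, where chance gives about 1 in 20. The lrNK library of pig 3 was below the others for *CXCR6* (86.2 CPM against 607 to 837 CPM), *TBX21* (80.9 against 201 to 246 CPM), *LOC733579* (92.6 against 529 to 835 CPM), *CD80* (2.44 against 15.8 to 31.2 CPM) and *CDKN1B* (14.6 against 65.2 to 100.3 CPM) and above them for *RRM2* (30.2 against at most 12.6 CPM).

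The blood library of pig 4 was below the other blood libraries for *GZMH* (20.6 against 319 to 695 CPM), *S1PR4* (66.9 against 139.5 to 178 CPM), *CRTAM* (54.2 against 102 to 122 CPM), *CD84* (83.5 against 180.5 to 212 CPM), *PIK3CG* (424 against 514 to 538 CPM) and *GIMAP1* (824 against 1240.3 to 1369 CPM). Its NK cell markers summed to 7116 CPM against 5188 to 5552 CPM, and its red cell markers to 323 CPM.

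Blood pig 1 stood apart for *ZNF683* (485 CPM against 593 to 623 CPM), *OCA2* (10.8 against 27.96 to 39.1 CPM), *LOC110260288* (17.3 against 49.1 to 65.7 CPM), *PPP3CA* (774 against 1027 to 1105 CPM), *SMAD6* (1.35 CPM against 0) and the sum of stellate cell and fibroblast markers (3.52 CPM against 0). Blood pig 5 stood apart for *CHST15* (27.6 against 5.48 to 8.68 CPM), *CD200R1* (5.46 CPM against at most 0.542 CPM), *SLA-DOB* (0 CPM against 5.06 to 9.32 CPM) and *TYMS* (11.3 against 25.7 to 28.5 CPM). Blood pig 2 was below the others for *NOS2* (88.5 against 153 to 178 CPM) and above them for *HSPA1L* (1.64 CPM against 0), and *PIK3R6* was at 1.09 CPM in blood pig 3 against 0. Among lrNK libraries, pig 4 was the lowest for *PIK3R6* (0.843 against 14.1 to 20.2 CPM) and *SATB1* (365 against 572 to 649 CPM), and pig 1 for *TIMMDC1* (12.04 against 27.3 to 32.6 CPM).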

How the results depend on the processing

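The number of called genes was 1993 and ran from 1438 to 2391 over the alternatives. With the pig as a replicate block in the fit of all 15 libraries 2120 genes were called, 959 higher and 1161 lower, 1893 of them the same, and of the 222 called genes described the block ended the call of *KIF11* (adjusted p = 0.0558, edgeR). With only the 10 libraries in the fit, 14 of the 214 of them that were tested lost their call, and with the block as well 19 did. Among the 19 were *CCL4*, *CXCR5*, *IFIT1*, *NMI*, *TAPBP*, *TIMMDC1*, *IKZF2*, *PRDM1*, *FBXL14* and *SMURF2*. The others were *SMAD4*, *TGFB1*, *TGIF1*, *SOCS2*, *PTGER2*, *PPP3CB*, *GIMAP7*, *RRM2* and *KIF11*. Their adjusted p in that fit ran from 0.0504 to 0.144 (edgeR). Between 70.1% and 99.3% of the 1993 calls were kept, and 1 gene changed sign, without pig 3. Leaving out 1 pig gave 1472 to 1951 calls. Of 143 called genes that the naming rule gave, 125 kept their call under every alternative they were tested in, 18 lost it in at least 1 and 0 changed direction. In the band under 20, DESeq2 gave 172 higher and 171 lower genes, and leaving out a pig 39 to 65 higher. A floor of 0 to 5 counts gave 45 blood-only genes, a detection minimum of 5 counts 50 blood-only and 23 lrNK-only genes, and a minimum of 20 counts 18 and 5. Leaving out a pig gave 37 to 51 and 17 to 26, as fewer libraries had to meet the rule.

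With the replicate block as an exact sign-flip test, the mean differences of summed markers were 568 CPM for B cell, 359 for plasma cell, 406 for dendritic cell, 11.3 for hepatocyte and -591 for T cell lists (adjusted p = 0.162, not below 0.05 for 5 pigs). Without 1 pig they ran from 481 to 661, 316 to 422, 367 to 439, 7.55 to 13.4 and -727 to -520.1 CPM (exact permutation test, adjusted p from 0.0619 to 0.0743, where 8 libraries allow no unadjusted p below 0.0286, so losing the call says nothing of stability). The median log2 fold change of all genes stayed between -0.03 and 0.02. The shallower lrNK libraries, from 2003499 counts, limit what can be called absent there.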
